A study of Mus musculus with 15 samples.

Results

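Gene expression in the posterior eyecups of mice carrying 1 copy of the FUN025 mutation of Tmem135 was compared with the midpoint of the 2 homozygous genotypes. All 15 libraries of the series were used, and genes with 1 CPM or more (the count scaled to a fixed library total) in at least 4 libraries were tested, which kept 18139 of the 55421 genes listed. For each gene the contrast was the FUN025/+ mean minus the average of the WT and FUN025/FUN025 means on the log2 scale, called the dominance contrast here. It is 0 when each mutant allele adds the same log2 change.

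The groups were 4 WT mice, 6 FUN025/+ mice and 5 FUN025/FUN025 mice, all aged 2.5 months, of both sexes, and on the C57BL/6J background. The paper lists males and females in equal number in WT, more males in FUN025/+ and more females in FUN025/FUN025. The neural retina had been removed from each eyecup, leaving pigment epithelium, choroid and sclera, and 1 library stood for 1 mouse. WT animals were C57BL/6J controls; neither the labels nor the methods say that they were littermates of the mutants, and the sex of single mice is not labelled. FUN025 is present in every cell of the animal, so a change in 1 cell type of the eyecup is not separated from changes elsewhere in the body.

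An allele that acts additively gives heterozygotes halfway between the homozygotes, a recessive one leaves them like WT, and a dominant one makes them like the mutant homozygote. Tmem135 encodes a multi-pass membrane protein that has been tied to mitochondria, peroxisomes and lipid handling. The pigment epithelium around which this tissue is built takes up shed photoreceptor membranes every day and so handles a large load of fatty acids and cholesterol. Cells adjust their lipid supply through the SREBP transcription factors, of which Srebf2 is best known for sterol genes and Srebf1 for fatty acid genes.

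Library totals were 18094977 to 20029919 counts in WT, 10903183 to 13456349 in FUN025/+ and 11053535 to 15038383 in FUN025/FUN025, so that every WT library was deeper than every mutant library while the mutant genotypes overlapped. A dominant pattern, in which WT stands apart from both mutant genotypes, therefore cannot be told apart from any batch that held the WT mice alone. With all libraries thinned at random to equal depth, 1100 genes had the dominant mode alone left (heterozygotes apart from WT and not from FUN025/FUN025) against 1206 without thinning, and 986 were in both. Additive and recessive patterns separate the mutant genotypes from each other, but their placing and all positions also rest on the comparison with WT. Of the marker genes, the 7 of pigment epithelium summed to a median of 18510 CPM in WT, 20430 CPM in FUN025/+ and 17590 CPM in FUN025/FUN025. Markers of tissue that is not eyecup were also counted, at levels that varied among libraries. The 5 skeletal muscle markers summed to between 2532 and 3916 CPM in WT, between 1330 and 2719 CPM in FUN025/+ and between 1617 and 2085 CPM in FUN025/FUN025, and the 5 rod markers to between 199.6 and 1983, between 75.2 and 576, and between 81.1 and 357 CPM. No 2 libraries of a genotype were alike within sampling noise.

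The dominance contrast differed from 0 for 383 genes at an adjusted p under 0.05 (2.11% of the genes tested). FUN025/+ eyecups lay above the midpoint for 236 genes (1.3%) and below it for 147 genes (0.81%). At an unadjusted p under 0.05, 16.7% of genes were off the midpoint. FUN025/FUN025 differed from WT for 2640 genes (14.6%), of which 1416 were higher (7.81%) and 1224 lower (6.75%) in the mutants, and only for these genes was a mode of action described. A mode was dropped for a gene when the test that bears on it gave an unadjusted p under 0.05: FUN025/+ minus WT for recessive, FUN025/FUN025 minus FUN025/+ for dominant and the dominance contrast for additive. Over all genes, FUN025/+ minus WT passed this limit for 29.4% and FUN025/FUN025 minus FUN025/+ for 6.35%.

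By this rule 83 genes (3.14% of the 2640) had the recessive mode alone left, 100 genes (3.79%) the additive mode alone and 1206 genes (45.7%) the dominant mode alone. For 1218 genes (46.1%) more than 1 mode was left, and for 33 genes (1.25%) none was. As shares of all genes tested, these classes were 0.458%, 0.551%, 6.65%, 6.71% and 0.182%. A mode that was not dropped is not shown to hold, since a test can miss a difference. The position of FUN025/+ between the homozygotes was set at 0 for the WT level, 0.5 for the midpoint and 1 for the FUN025/FUN025 level. Its median over the 2640 genes was 0.895, with quartiles of 0.698 and 1.03. It was under 0.25 for 124 genes, from 0.25 to 0.75 for 681, from 0.75 to 1.25 for 1702 and over 1.25 for 133. WT enters both parts of this ratio, so positions are given with no test.

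**Figure D1:**
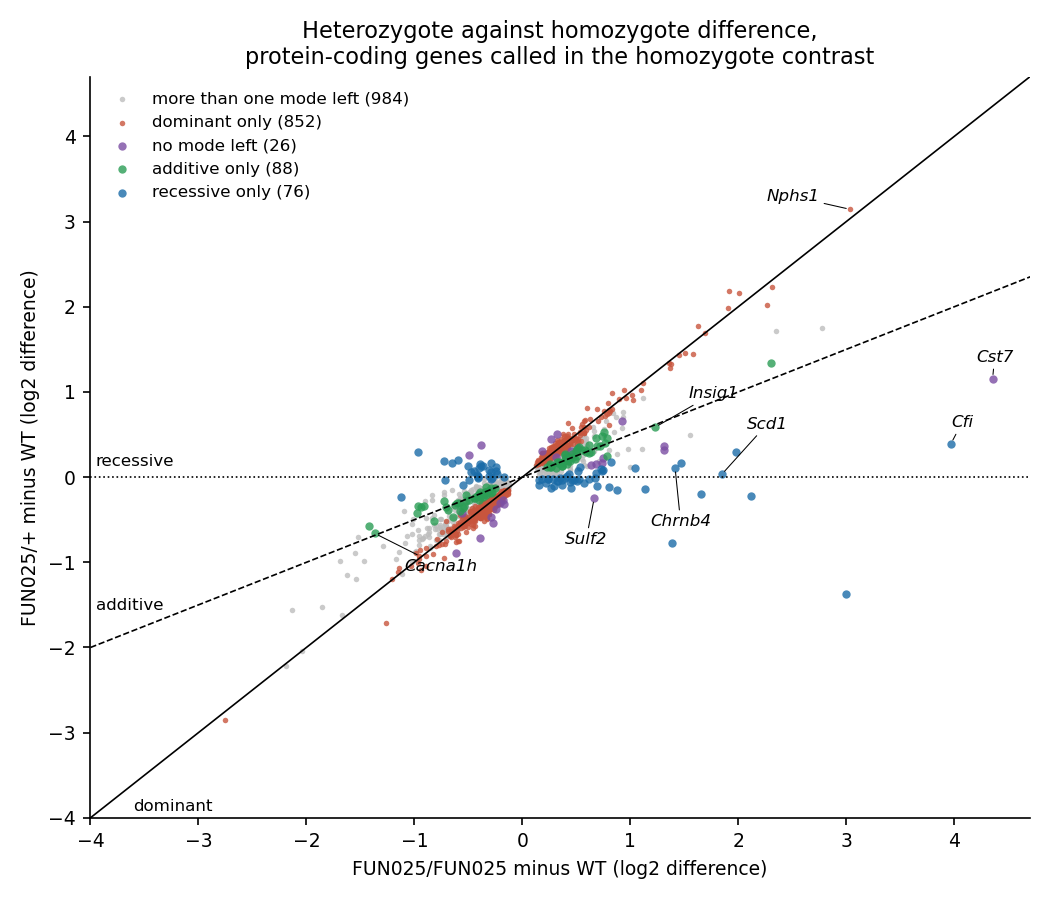
The FUN025/+ minus WT difference (vertical, log2) is plotted against the FUN025/FUN025 minus WT difference (horizontal, log2) for the 2026 protein-coding genes called between the homozygotes, each point being 1 gene and each colour the mode left. The 852 genes with the dominant mode alone follow the solid line, the 88 additive genes the dashed line and the 76 recessive genes the dotted line at 0, where Scd1, Cfi and Chrnb4 lie far to the right.

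Tmem135 itself took an intermediate level in heterozygotes. Its counts came to 65.8, 63.8, 66.4 and 59.4 CPM in the WT libraries, between 66.1 and 85.9 CPM (median 74.3) in FUN025/+ and 85.6, 89.2, 94, 83 and 91.4 CPM in FUN025/FUN025. No homozygote library overlapped the other homozygotes, and FUN025/+ overlapped both. The log2 difference between homozygotes was 0.47 ± 0.07 (SE; adjusted p = 0.000116, edgeR), the dominance contrast was -0.0045 ± 0.05 (adjusted p = 0.974), and the position was 0.491, with a 95% interval of 0.241 to 0.727. Tmem135 lies on GRCm38 chr7:89139714-89404222, minus strand. Within 5 Mb of it 44 genes were tested, 3 of them were called between homozygotes (14.6% of all genes were) and 1 was off the midpoint (2.11% of all). These 3 were Fzd4, a receptor for WNT and norrin, with more than 1 mode left, and Gm44995 and Gm15501, with the dominant mode alone left.

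Most cholesterol synthesis genes rose in FUN025/FUN025, and none was off the midpoint by edgeR (4 at an unadjusted p under 0.05, and 1 adjusted by DESeq2, 0 by limma). All 20 genes of the list were tested, and 15 rose in FUN025/FUN025 against WT, beside 7.81% of all genes. The median log2 difference was 0.45 between homozygotes and 0.26 between FUN025/+ and WT, and the median dominance contrast was 0.04, beside medians of 0.00054, 2.63e-05 and -0.00034 over all genes tested. The median position of the 15 was 0.623 (range 0.187 to 1.1), below the 0.895 of all genes called. The additive mode alone was left for Dhcr7, Lss, Cyp51, Sqle and Hmgcs1, the dominant mode alone for Msmo1 and Hsd17b7, more than 1 mode for 7 genes, and none for Idi1. No gene of the list had the recessive mode alone left.

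Hmgcs1 makes the HMG-CoA from which the pathway starts. It held 118, 91.4, 97.7 and 103 CPM in WT, between 128 and 158 CPM (median 139) in FUN025/+ and 150.2, 152, 151, 201 and 168 CPM in FUN025/FUN025. FUN025/+ libraries were all above WT and overlapped FUN025/FUN025. The homozygote difference was 0.68 ± 0.09 on the log2 scale (adjusted p = 8.92e-05), and the position was 0.669 (0.448 to 0.907). Lss, the cyclase that closes the sterol rings, gave 34.8, 38.2, 32.2 and 31.9 CPM in WT, between 38.3 and 51 CPM (median 43) in FUN025/+ and 56.6, 49.9, 49.2, 61 and 60.1 CPM in FUN025/FUN025. Here too FUN025/+ did not overlap WT. Its position was 0.522 (0.305 to 0.734) and its dominance contrast 0.02 ± 0.07 (adjusted p = 0.932).

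Msmo1, a sterol demethylation enzyme, was nearer to the mutant homozygote. Its levels were 69.6, 72.7, 66.4 and 76.6 CPM in WT, between 82.1 and 103 CPM (median 93.4) in FUN025/+ and 97.7, 86.4, 97.6, 119 and 108 CPM in FUN025/FUN025, with a position of 0.768 (0.502 to 1.09). The interval began just above the midpoint, and the dominance contrast of 0.14 ± 0.06 had an adjusted p of 0.291. Acat2, which joins acetyl-CoA units, was at 19.4 ± 1.3 CPM (SD) in WT, 24 ± 3.57 in FUN025/+ and 27.2 ± 3.07 in FUN025/FUN025. Its position of 0.623 (0.218 to 1.06) left both the additive and the dominant mode; 43.7% of its sequence also occurs in other genes.

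Of 10 genes that control the SREBP factors or take up sterols, 6 rose in FUN025/FUN025 (7.81% of all genes did) and 1 was off the midpoint, below it (0.81% of all). The median position of the 6 was 0.498. Insig1, which holds SREBP proteins in the endoplasmic reticulum, and Stard4, a sterol carrier, were among those with the additive mode alone left. Insig1 read 89.7, 68.8, 65.2 and 79.3 CPM in WT, between 102 and 126 CPM (median 111) in FUN025/+ and 163, 167, 163, 206 and 188 CPM in FUN025/FUN025, and no library of one genotype overlapped another. Between homozygotes Insig1 was 2.34-fold higher (1.23 ± 0.10 on the log2 scale, adjusted p = 4.7e-07), and its position was 0.476 (0.341 to 0.605). Mbtps2, a protease that releases SREBP, had the dominant mode alone left, at a position of 1.29 (0.818 to 2.48).

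The positions of the SREBP genes themselves were not tested against each other. Srebf1 held 177, 148, 156 and 183 CPM in WT, between 155 and 192 CPM (median 178) in FUN025/+ and 266, 284, 302, 255 and 287 CPM in FUN025/FUN025. Heterozygotes overlapped WT and every one of them was below every FUN025/FUN025 library. The dominance contrast was -0.29 ± 0.06 (adjusted p = 0.0111), and the position 0.112 (-0.0965 to 0.281) left the recessive mode alone. Srebf2 moved less, with 163 ± 7.56 CPM in WT, 176 ± 12.5 in FUN025/+ and 198 ± 21.2 in FUN025/FUN025 (homozygote difference 0.28 ± 0.07, adjusted p = 0.013), and its wide interval of -0.165 to 0.832 around 0.395 left more than 1 mode.

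The promoters of 4 of these lipid genes, which fell into 3 modes, are shown so that their control sequences can be read beside the modes. Each run holds the 250 bases before the RefSeq start site on GRCm38.p6, 5′ to 3′ on the gene's strand, and the capitals mark matches on either strand to CCAAT, the letters of an NF-Y box, or to TCACNCCAC, the letters of a sterol regulatory element as searched here. The intervals are chr13:119690101-119690350, plus strand, for Hmgcs1 (additive), chr10:76531355-76531604, plus strand, for Lss (additive), chr8:64733579-64733828, minus strand, for Msmo1 (dominant) and chr11:120824548-120824797, minus strand, for Fasn (recessive).
Hmgcs1: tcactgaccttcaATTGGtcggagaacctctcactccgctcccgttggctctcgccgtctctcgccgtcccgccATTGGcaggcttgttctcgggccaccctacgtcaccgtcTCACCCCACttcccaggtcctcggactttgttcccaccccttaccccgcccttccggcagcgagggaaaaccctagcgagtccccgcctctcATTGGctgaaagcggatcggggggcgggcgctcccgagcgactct
Lss: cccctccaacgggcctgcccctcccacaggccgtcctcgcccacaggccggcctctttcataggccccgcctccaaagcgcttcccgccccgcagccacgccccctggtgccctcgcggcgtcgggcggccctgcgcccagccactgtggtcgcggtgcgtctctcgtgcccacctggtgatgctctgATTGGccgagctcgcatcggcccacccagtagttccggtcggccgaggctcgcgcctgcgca
Msmo1: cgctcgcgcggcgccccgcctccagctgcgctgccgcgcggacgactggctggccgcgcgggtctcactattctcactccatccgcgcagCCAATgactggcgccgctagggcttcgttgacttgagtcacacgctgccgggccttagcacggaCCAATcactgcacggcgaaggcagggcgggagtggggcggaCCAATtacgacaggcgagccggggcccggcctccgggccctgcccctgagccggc
Fasn: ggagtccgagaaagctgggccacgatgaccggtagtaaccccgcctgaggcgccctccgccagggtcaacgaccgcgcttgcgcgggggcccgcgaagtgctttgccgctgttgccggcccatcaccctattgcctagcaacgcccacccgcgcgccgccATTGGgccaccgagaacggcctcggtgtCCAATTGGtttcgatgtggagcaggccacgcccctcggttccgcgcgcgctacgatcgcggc
The Hmgcs1 run holds TCACNCCAC once and CCAAT 3 times, Lss holds CCAAT once, and Msmo1 and Fasn hold it 3 times each; in Fasn the last 2 matches share bases. RefSeq promoters were found for 15 of the 20 sterol synthesis genes, and 14 of those genes (93.3%) had CCAAT, beside 37.5% of the 27025 genes with a promoter. Among genes of fatty acid synthesis 12 of 21 (57.1%) had it. TCACNCCAC was in 1 sterol synthesis gene, Hmgcs1, in none of the 21 fatty acid genes and in 1.22% of all genes. By mode, CCAAT was in 29 of 57 recessive genes with a promoter (50.9%), 28 of 65 additive genes (43.1%) and 273 of 713 dominant genes (38.3%), beside 39.6% of the genes tested. A match is a run of letters and not a shown binding site.

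Called genes of fatty acid synthesis and desaturation had a median position nearer to WT than to the midpoint. Of 25 genes 24 were tested, 10 rose and 1 fell in FUN025/FUN025, and 6 were off the midpoint, 5 of them below it. Over all genes 7.81% rose, 6.75% fell, 2.11% were off the midpoint and 0.81% below it. The median position of the 11 genes called was 0.225. Scd1, Fasn, Acsl3 and Fads2 had the recessive mode alone left, Acaca and Idh1 the additive mode, Elovl6 the dominant mode and Acly more than 1 mode. All 3 modes were dropped for Fads1, Scd2 and Elovl2.

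Scd1, the desaturase that makes oleate, was at the WT level in heterozygotes. It read 98.4, 93.1, 82.1 and 110.5 CPM in the WT libraries, between 74.9 and 111 CPM (median 102) in FUN025/+ and 354, 319.7, 305, 381 and 368 CPM in FUN025/FUN025. Heterozygotes overlapped WT and none came near the mutant homozygotes. FUN025/FUN025 exceeded WT 3.6-fold (1.85 ± 0.11 on the log2 scale, adjusted p = 2.84e-08), the dominance contrast was -0.89 ± 0.08 (adjusted p = 3.32e-05), and the position was 0.0173 (-0.107 to 0.125). Fasn, the fatty acid synthase, held 149, 144, 143 and 145 CPM in WT, between 137 and 170.4 CPM (median 147) in FUN025/+ and 201, 188, 199, 196 and 193 CPM in FUN025/FUN025, with a dominance contrast of -0.18 ± 0.04 (adjusted p = 0.0299). Acsl3, which activates long-chain fatty acids, was at -0.124 (-0.644 to 0.19), with a dominance contrast of -0.20 ± 0.04 (adjusted p = 0.021).

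Scd2, the second desaturase measured here, lay between recessive and additive. Its WT libraries held 524, 507, 481 and 529.6 CPM, FUN025/+ between 566 and 718 CPM (median 663) and FUN025/FUN025 1208, 1220.4, 1303, 1272 and 1321 CPM. The 3 genotypes did not overlap, and the position of 0.275 had an interval of 0.181 to 0.362 that left out both the WT level and the midpoint. Fads1 and Fads2 make polyunsaturated fatty acids and lie on the same stretch of chromosome 19. Fads1 held 247 ± 4.35 CPM in WT, 277 ± 18.4 in FUN025/+ and 412 ± 17 in FUN025/FUN025, with a dominance contrast of -0.20 ± 0.04 (adjusted p = 0.0148). Fads2 had the same position of 0.225, but its dominance contrast of -0.15 ± 0.05 did not pass (adjusted p = 0.13).

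The additive genes of this group were Acaca and Idh1. Acaca makes malonyl-CoA and Idh1 makes NADPH in the cytosol. Idh1 read 78.3, 75.6, 74.7 and 76.6 CPM in WT, between 86.8 and 93.7 CPM (median 91.3) in FUN025/+ and 107, 104, 108, 108 and 115 CPM in FUN025/FUN025, without overlap between any genotypes. Its dominance contrast was -0.00084 ± 0.03 (adjusted p = 0.992) and its position 0.498 (0.358 to 0.635). Acaca was at 0.388 (0.171 to 0.582), also without overlap between genotypes; 33.5% of its sequence occurs in other genes.

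Elovl2, which lengthens polyunsaturated fatty acids, did not follow the others. It held 32.8, 30, 24.1 and 28.4 CPM in WT, between 30.3 and 41.3 CPM (median 38.3) in FUN025/+ and 20.3, 20, 22.9, 21.7 and 26 CPM in FUN025/FUN025. Heterozygotes had the highest mean and the mutant homozygotes the lowest. The dominance contrast was 0.57 ± 0.08 (adjusted p = 0.000586) and the homozygote difference -0.38 ± 0.10 (adjusted p = 0.02). With the rod and sarcomere list levels as covariates the dominance contrast stayed at 0.57 with an adjusted p of 0.0535.

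**Figure D2:**
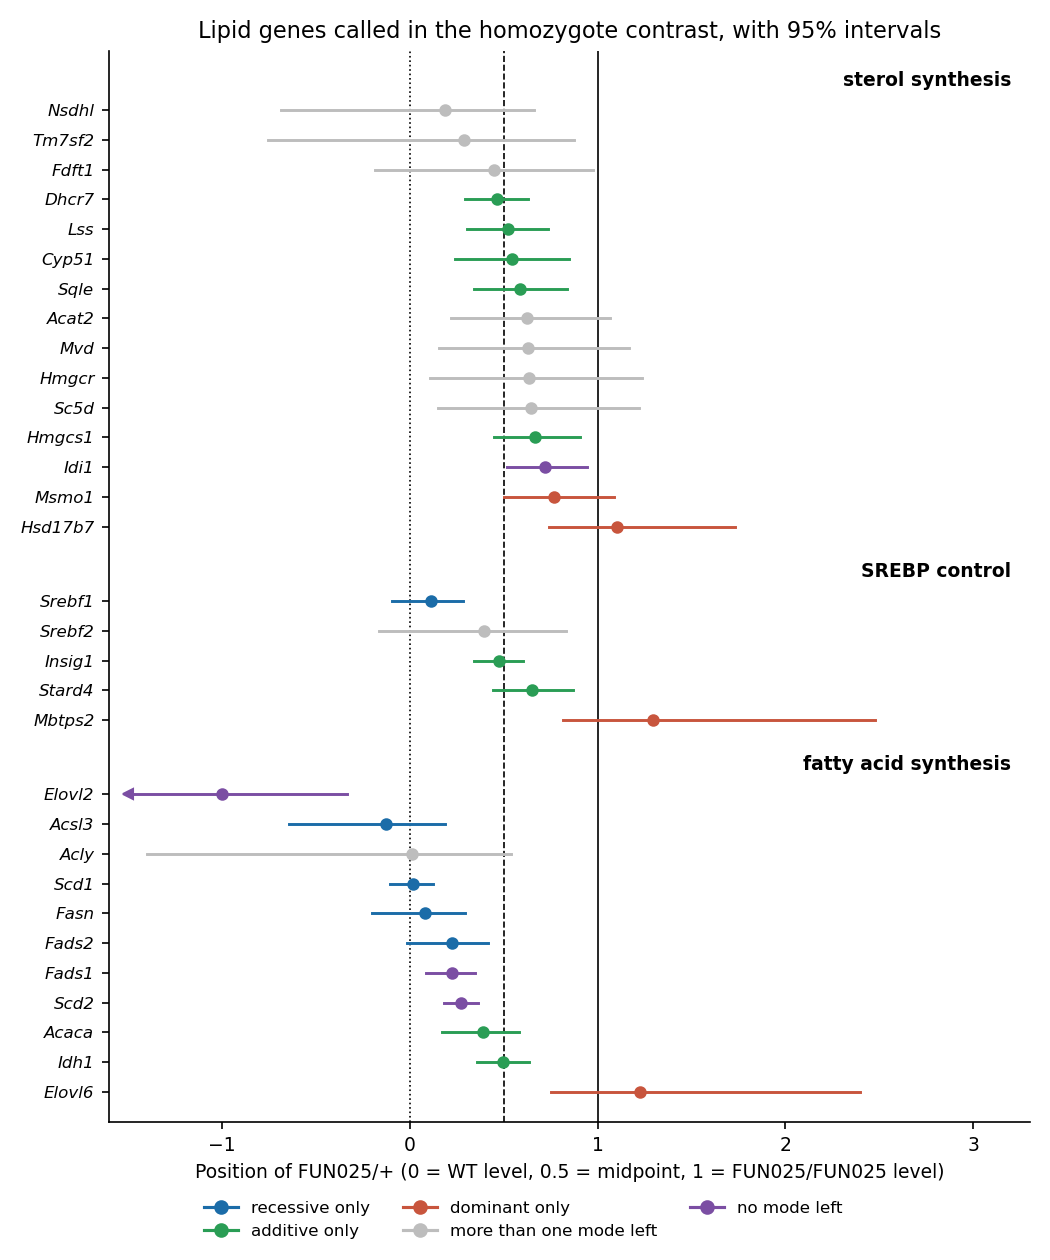
Position of FUN025/+ between WT (0) and FUN025/FUN025 (1) is drawn for lipid genes called between homozygotes, with 95% intervals, in 3 groups. Sterol synthesis genes centre on 0.623 (range 0.187 to 1.101). Fatty acid synthesis genes centre on 0.225 (-1.001 to 1.227), with Scd1, Fasn, Fads1, Fads2 and Scd2 at 0.275 or below. The groups were not tested against each other. The interval of Elovl2 runs past the left edge.

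Most genes of complement passed no test. Of 21 complement genes 4 rose and 1 fell in FUN025/FUN025 (7.81% and 6.75% of all genes), 2 lay below the midpoint and 1 above it (0.81% and 1.3% of all). Off the midpoint DESeq2 called 3, limma trend 2 and limma voom 1. C1s1, Clu, C4b and Cfi rose and Vtn fell. The median position of these 5 was 0.170 (range -0.146 to 0.982), the recessive mode alone was left for C4b and Cfi, and more than 1 mode for the other 3. C4b, a source of complement C4, held 202, 217, 171 and 193 CPM in WT, between 146 and 199.9 CPM (median 189) in FUN025/+ and 323, 287, 316, 366 and 287 CPM in FUN025/FUN025, with a dominance contrast of -0.45 ± 0.07 (adjusted p = 0.00357). Heterozygotes overlapped WT alone. 48.3% of its sequence occurs in other genes, so part of its counts may belong to a near copy. Cfi, the protease that cuts C3b and C4b, was low in WT with 0.721, 0.753, 0.301 and 0.166 CPM and in FUN025/+ with between 0.348 and 0.884 CPM (median 0.629), and reached 8.6, 9.69, 9.56, 5.62 and 4.93 CPM in FUN025/FUN025. That was 15.7-fold above WT (adjusted p = 4.48e-07), and the dominance contrast was -1.59 ± 0.31 (adjusted p = 0.0101).

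In the list of macrophage genes that come with lipid uptake, 18 of 19 dominance contrasts were below 0, beside 9080 of all 18139, and the median was -0.11. None of the 19 passed edgeR's test of that contrast (5 at an unadjusted p under 0.05; adjusted, 0 by DESeq2, 1 by limma trend and 0 by limma voom). Trem2 and Cst7 were called between homozygotes, 2 of 19 beside 14.6% of all genes. Trem2, a lipid-sensing receptor, held 19, 18.6, 18.1 and 27 CPM in WT, between 16.6 and 25.2 CPM (median 19.6) in FUN025/+ and 29.7, 26.7, 31.1, 30.9 and 28.6 CPM in FUN025/FUN025, at a position of -0.0812 (-0.988 to 0.348). Cst7, a cystatin of activated microglia, read 0.111, 0.269, 0.2 and 0.332 CPM in WT, between 0.15 and 0.825 CPM (median 0.539) in FUN025/+ and 4.96, 4.08, 3.61, 7.86 and 3.65 CPM in FUN025/FUN025. It was 20.5-fold higher in the mutant homozygotes, and its position of 0.266 (0.0553 to 0.433) left no mode. The 4 general macrophage markers summed to a median of 291.9 CPM in WT, 304.4 CPM in FUN025/+ and 306.1 CPM in FUN025/FUN025.

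A2m, a secreted protease trap, and Plin2, the coat protein of lipid droplets, had the recessive mode left. A2m read 353, 347, 352 and 321 CPM in WT, between 333 and 405 CPM (median 392) in FUN025/+ and 851, 997, 1196, 825 and 894 CPM in FUN025/FUN025. All mutant homozygotes were above every other library. Its dominance contrast was -0.58 ± 0.07 (adjusted p = 0.000229), and -0.38 with an adjusted p of 0.0786 when the rod and sarcomere lists were covariates. For Plin2 the means were 93.9 ± 4.11 CPM in WT, 88.1 ± 12.9 in FUN025/+ and 121 ± 6.69 in FUN025/FUN025, and the dominance contrast of -0.27 ± 0.07 was just inside the threshold (adjusted p = 0.0492).

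Receptors of nerve cells were among the recessive genes with the largest homozygote differences. Chrnb4 and Chrna3 encode nicotinic acetylcholine receptor subunits that assemble with each other, and the genes are neighbours on chromosome 9. Chrnb4 held 28.9, 28.7, 26.1 and 29.8 CPM in WT, between 26.8 and 35.2 CPM (median 30.8) in FUN025/+ and 68.5, 75.5, 94.5, 69.4 and 70.5 CPM in FUN025/FUN025, with a dominance contrast of -0.60 ± 0.07 (adjusted p = 0.000246) and a position of 0.0778 (-0.0626 to 0.199). Chrna3 gave 1.4 ± 0.585 CPM in WT, 1.7 ± 0.398 in FUN025/+ and 5.51 ± 1.31 in FUN025/FUN025, at 0.147 (-0.154 to 0.374). For both genes FUN025/+ overlapped WT and not FUN025/FUN025.

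The recessive genes that fell by most included Pde6c, the cone phosphodiesterase. Its levels were 12, 13.7, 8.47 and 10.4 CPM in WT, between 6.93 and 11.7 CPM (median 9.91) in FUN025/+ and 4.17, 4.46, 5.3, 5.13 and 6.57 CPM in FUN025/FUN025. Gnb3, another cone transduction gene, moved the other way, with 11.1 ± 7.48 CPM in WT, 6.44 ± 3.43 in FUN025/+ and 28.9 ± 5.41 in FUN025/FUN025, at a position of -0.559 (-2.95 to 0.0752). The neural retina had been taken off these eyecups, and the 3 cone markers tested summed to a median of 21.4 CPM in WT, 18.2 CPM in FUN025/+ and 21.7 CPM in FUN025/FUN025. Hist1h1e, 9530053A07Rik and Stox1 completed the recessive genes with the lowest homozygote differences. Hist1h1e encodes a linker histone and held 4.06 ± 0.426, 3.99 ± 0.751 and 2.48 ± 0.56 CPM in WT, FUN025/+ and FUN025/FUN025. The homozygote calls of 9530053A07Rik (adjusted p = 0.0443) and Stox1 (adjusted p = 0.0391) were lost under many alternatives. For 9530053A07Rik these included leaving out any 1 of the WT libraries (adjusted p = 0.0535 to 0.1) and thinning to equal depth (adjusted p = 0.114), and for Stox1 leaving out WT replicate 1, 3 or 4 (adjusted p = 0.0519 to 0.113) or FUN025/FUN025 replicate 1, 2, 3 or 4 (adjusted p = 0.0664 to 0.081).

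**Figure D3:**
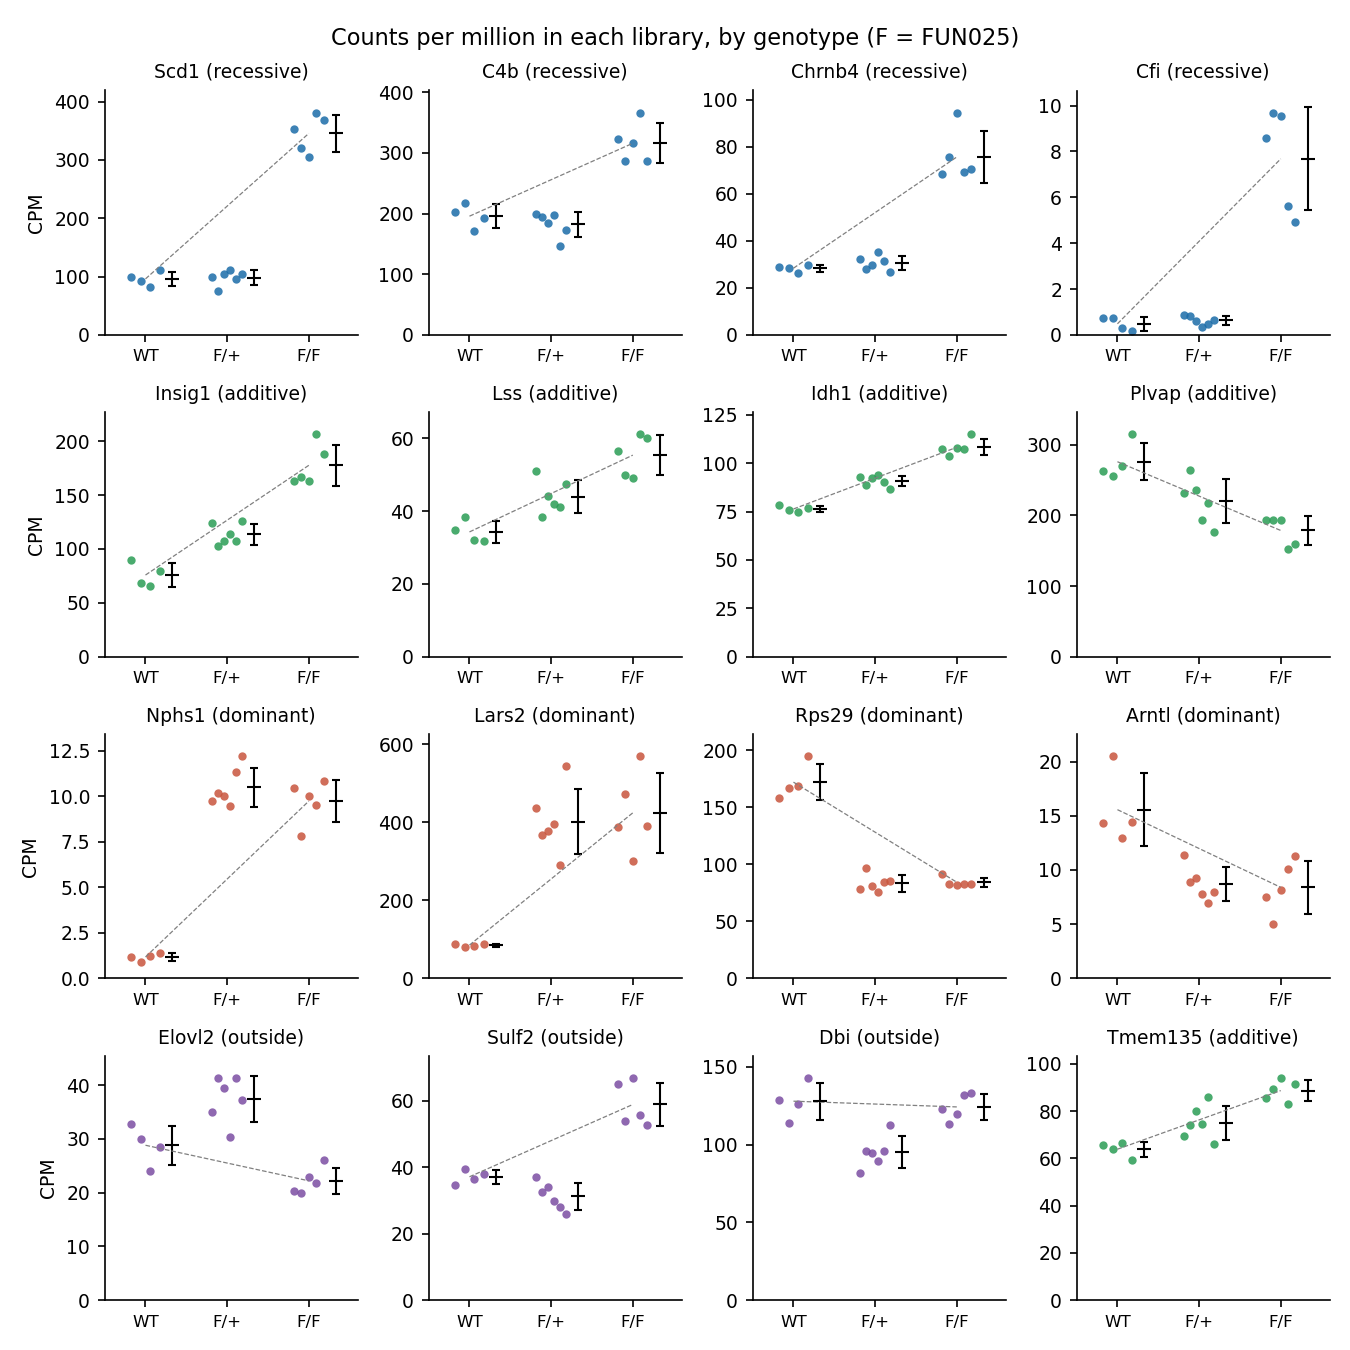
CPM in each of the 15 libraries is plotted for 16 genes, 1 point a library, with mean and SD bars beside the points and a dashed line joining the homozygote means on the linear CPM axis (tests used the log2 scale). FUN025/+ points sit at the WT level in the top row, near the line in the second and at the FUN025/FUN025 level in the third. In the first 3 panels of the last row the FUN025/+ mean lies outside both homozygote means, though some points overlap a homozygote.

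Most endothelial genes were lower in FUN025/FUN025, and the fitted FUN025/+ means of those called lay between the homozygotes (positions of 0.332 to 0.922). Of 19 genes tested 14 fell in FUN025/FUN025, beside 6.75% of all genes, none rose, and none was off the midpoint (0 also at an unadjusted p under 0.05 and by DESeq2 and limma). The median homozygote difference of the 19 was -0.33, the median dominance contrast -0.02 and the median position of the 14 genes 0.550. The additive mode alone was left for Cdh5, Plvap, Pecam1, Esam and Flt1, and more than 1 mode for the other 9. In whole tissue, fewer endothelial cells and less RNA per cell cannot be told apart.

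Cdh5, the junctional cadherin of endothelium, held 97.7, 96.7, 102 and 108 CPM in WT, between 69.1 and 93.8 CPM (median 85.2) in FUN025/+ and 78.4, 74.6, 72, 64.5 and 70.2 CPM in FUN025/FUN025. FUN025/+ was below WT throughout and overlapped FUN025/FUN025. Its homozygote difference was -0.49 ± 0.08 (adjusted p = 0.000389) and its position 0.541 (0.262 to 0.821). Plvap, which spans the pores of choroidal capillaries, read 263, 256, 269.5 and 315 CPM in WT, between 177 and 264 CPM (median 225) in FUN025/+ and 193, 193, 193, 153 and 160.1 CPM in FUN025/FUN025, at 0.521 (0.206 to 0.829). Summed over the 5 choroid endothelium markers, libraries held between 755.3 and 881.6 CPM in WT, between 577 and 811 in FUN025/+ and between 523 and 660 in FUN025/FUN025, and only the homozygotes did not overlap. Gata2, an endothelial and blood transcription factor, was at 0.669 (0.341 to 1.06), which left the additive and dominant modes.

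Other additive genes came from several roles. Col8a1, a collagen of Bruch's membrane, held 745 ± 111 CPM in WT, 969 ± 87 in FUN025/+ and 1139.9 ± 84.2 in FUN025/FUN025, at 0.618 (0.366 to 0.882). Cacna1h, a T-type calcium channel subunit, held 12.8 ± 2.75 CPM in WT, 8.12 ± 1.35 in FUN025/+ and 4.97 ± 0.845 in FUN025/FUN025, with a position of 0.483 (0.282 to 0.685) and a homozygote difference of -1.37 ± 0.16 (adjusted p = 1.83e-05). Nog, a secreted BMP inhibitor, was at 0.351 (0.0196 to 0.636), S1pr4, a lymphocyte sphingolipid receptor, at 0.409 (0.11 to 0.702), and Etv4, an ETS transcription factor, at 0.427 (0.0634 to 0.768). All 3 were lower in FUN025/FUN025 than in WT. Among additive genes that rose, Tent5c, a poly(A) polymerase, was at 0.317 (0.0742 to 0.524) and C330021F23Rik at 0.596 (0.256 to 0.946). Gm9780 had the highest additive difference (2.31 ± 0.55), but 99.4% of its sequence is found in other genes and its levels are uncertain. Bcor, a transcriptional corepressor, was called lower in FUN025/FUN025, with means of 81.6 ± 1.46 CPM in WT, 77.1 ± 3.23 in FUN025/+ and 70.7 ± 1.76 in FUN025/FUN025. Its position of 0.394 (-0.02 to 0.742) left the recessive and additive modes.

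Pseudogenes made up 13.8% of the genes with the dominant mode alone, 1.2% of recessive genes, 1% of additive genes, 4.68% of genes with more than 1 mode left, 6.06% of those with none and 3.8% of all genes tested. At least 10% of the sequence occurred in other genes for 43% of dominant genes, 15.7% of recessive genes, 23% of additive genes, 28.9% of genes with more than 1 mode left and 48.5% of those with none, beside 28.7% of all. Of the 383 genes off the midpoint, 22.2% were pseudogenes and 53% shared at least 10% of their sequence. The reads of such genes can be split among copies by the counting, so their levels are uncertain. The median position was 0.959 for pseudogenes, 0.879 for protein-coding genes and 0.854 for genes sharing under 10%. When the fit was limited to genes sharing under 10%, 643 genes had the dominant mode alone left and 76 were off the midpoint. Off the midpoint, 266 of the 383 genes had the dominant mode alone left, 31 the recessive mode alone, 23 no mode, and 63 were not called between homozygotes.

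**Figure D4:**
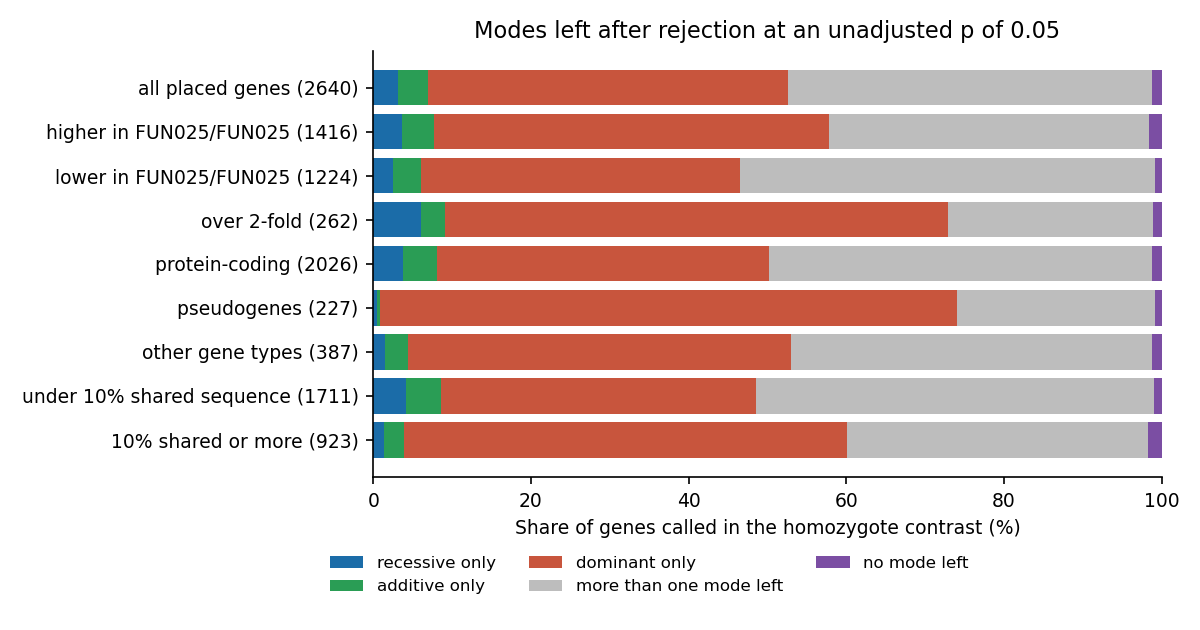
Stacked bars give the percentage of genes called between homozygotes that had each mode left, for all 2640 genes and for subsets named with their size. The dominant share is largest in pseudogenes (166 of 227) and smallest in genes sharing under 10% of their sequence (684 of 1711).

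Of the ribosomal and nuclear respiratory chain genes that were called, most had the dominant mode alone left and were lower in both mutant genotypes, while the majority of each list was not called. Over all genes 6.75% fell, 7.81% rose and 0.81% lay below the midpoint. Of 79 cytosolic ribosome genes 29 fell and 3 rose (Rpl15, Rplp0 and Rps2) in FUN025/FUN025, 11 were below the midpoint, and 30 had the dominant mode alone left, with a median position of 1.04 for the 32 called. Of 58 nuclear genes of the respiratory chain 18 fell and 2 rose (Cox7c and Ndufc2), 5 were below the midpoint (Cox6b1, Ndufa1, Ndufa3, Ndufb9 and Ndufb10), and 17 had the dominant mode alone left (median position 1.08). Rps29 held 158, 167, 169 and 195 CPM in WT, between 75.4 and 96.5 CPM (median 82.8) in FUN025/+ and 91.5, 83, 81.6, 82.6 and 83.2 CPM in FUN025/FUN025. The mutant genotypes overlapped and both were below WT in every library (dominance contrast -0.53 ± 0.06, adjusted p = 3.48e-05). Rps12 was at 1.03 (0.897 to 1.19) and Atp5k, a small subunit of ATP synthase, at 0.993 (0.849 to 1.17). Ribosomal protein genes have many processed copies in the genome, and 21.3% of the Rps29 sequence and 29.8% of that of Rps12 occur elsewhere.

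The sarcomere and rod lists had most dominance contrasts below 0, and none passed edgeR's test (6 sarcomere genes and 1 rod gene at an unadjusted p under 0.05, and 0 adjusted by DESeq2 or limma). All 32 sarcomere genes tested lay below the midpoint in sign, beside 9080 of all 18139, with a median dominance contrast of -0.34, and 6 fell between homozygotes (6.75% of all genes did) at a median position of 0.936. Rod phototransduction genes had a median dominance contrast of -0.79 and a median homozygote difference of -1.625. Rom1, 1 of 24, was called between homozygotes (14.6% of all genes), lower in FUN025/FUN025 with more than 1 mode left. Between homozygotes 18 sarcomere and 17 rod genes had an unadjusted p under 0.05. Adjusted, DESeq2 called 13 and 6, limma trend 6 and 1, and limma voom 7 and 1. With the mean levels of both lists as covariates, 394 genes had the dominant mode alone left, 61 the additive and 20 the recessive, and 82 genes were off the midpoint.

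A minority of the transcripts of the mitochondrial genome were higher in mutants. Of the 13 genes 4 rose in FUN025/FUN025 (7.81% of all genes did), all with the dominant mode alone left (45.7% of all genes called between homozygotes), and 3 of them were above the midpoint (1.3% of all). The 4 were mt-Co2, mt-Co3, mt-Atp8 and mt-Nd3, the last of which did not pass the dominance test. The summed level of all 13 had a median of 33220 CPM in WT, 30620 CPM in FUN025/+ and 29810 CPM in FUN025/FUN025, and the genotypes overlapped. mt-Co2, a subunit of cytochrome oxidase, read 30.3, 33.3, 29.9 and 39.3 CPM in WT, between 75.5 and 109 CPM (median 85.9) in FUN025/+ and 92.2, 97.4, 102, 81.4 and 80.8 CPM in FUN025/FUN025, with a dominance contrast of 0.71 ± 0.09 (adjusted p = 0.000336). mt-Co3 was at 17.5, 33.7, 19.6 and 18.8 CPM in WT, between 77.2 and 179 CPM (median 84.1) in FUN025/+ and 90.7, 94.2, 103, 79.6 and 83.9 CPM in FUN025/FUN025. Both were higher in every mutant library than in every WT library. mt-Atp8, an ATP synthase subunit, held 0.873 ± 0.203 CPM in WT, 3 ± 0.912 in FUN025/+ and 2.7 ± 0.435 in FUN025/FUN025. Its gene overlaps mt-Atp6, and 7.47% of its sequence occurs in other genes. By the same measure 100% of the mt-Co2 sequence and 99.9% of that of mt-Co3 occur in other listed genes, so the counting can split or drop their reads and their levels are uncertain.

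Nphs1 had the smallest p of all protein-coding genes off the midpoint. It encodes nephrin, the adhesion protein of the kidney filtration slit, and held 1.16, 0.914, 1.25 and 1.38 CPM in WT, between 9.48 and 12.2 CPM (median 10.1) in FUN025/+ and 10.4, 7.84, 10, 9.51 and 10.9 CPM in FUN025/FUN025. Both mutant genotypes were far above WT and overlapped each other. The homozygote difference was 8.21-fold (3.04 ± 0.15 on the log2 scale, adjusted p = 9.11e-10), the dominance contrast 1.63 ± 0.10 (adjusted p = 7.99e-08) and the position 1.03 (0.961 to 1.12). Nphs1 lies on GRCm38 chr7:30458315-30487223, plus strand, on the same chromosome as Tmem135 but far outside the 5 Mb window. Of its sequence 11.9% occurs in other genes, so it was not in the fit limited to genes sharing under 10%.

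Lars2, the mitochondrial leucyl-tRNA synthetase, was 4.97-fold higher in FUN025/FUN025 than in WT. Its libraries held 88.6, 81.4, 83 and 89.1 CPM in WT, between 291 and 544 CPM (median 387) in FUN025/+ and 388, 474, 300.3, 569.9 and 392 CPM in FUN025/FUN025, with a dominance contrast of 1.08 ± 0.14 (adjusted p = 0.00116). The 4 WT libraries were within a narrow range and the mutants spread widely. Ydjc (0.36 ± 0.04, adjusted p = 6.97e-05) and Ramac, a partner of the mRNA cap methyltransferase (0.24 ± 0.03, adjusted p = 0.000658), were above the midpoint by less, at positions of 1.08 (0.924 to 1.26) and 1.17 (0.949 to 1.49). Gm11808, with 94.7% of its sequence in other genes, Gm10260, with 96.6%, and the gene ENSMUSG00000117098, listed under the symbol Myl12b, with 97.2%, had large dominant differences that are uncertain for this reason. Igsf9, a cell adhesion gene, and Syt13, of the synaptotagmin family, were the lowest dominant genes with little shared sequence, at -1.15 ± 0.28 (adjusted p = 0.0113) and -1.26 ± 0.38 (adjusted p = 0.0337). Without WT replicate 2, which held 6.72 CPM of Syt13, its call was lost (adjusted p = 0.162). Cyb5a, an electron carrier for desaturases and sterol enzymes, held 135 ± 5.19 CPM in WT, 109.8 ± 4.55 in FUN025/+ and 109 ± 8.18 in FUN025/FUN025, at 0.968 (0.668 to 1.41).

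Among 17 clock genes 5 rose and 1 fell (7.81% and 6.75% of all genes), with 3 dominant, 1 recessive and 2 with more than 1 mode left (45.7%, 3.14% and 46.1% of all genes called between homozygotes). Arntl, the partner of CLOCK, was the gene that fell, and held 14.4, 20.5, 13 and 14.4 CPM in WT, between 6.93 and 11.3 CPM (median 8.43) in FUN025/+ and 7.47, 5, 8.11, 10.1 and 11.3 CPM in FUN025/FUN025. Mutant genotypes overlapped each other and not WT. Nr1d2, a repressor of Arntl, and Hlf, a clock output factor, were higher in both mutant genotypes, at 0.837 (0.52 to 1.26) and 1.21 (0.743 to 2.33). Bhlhe40 was the recessive one and the one clock gene off the midpoint (-0.17 ± 0.04, adjusted p = 0.0359). Eyes were collected within a midday window, and the hour of each mouse is not labelled.

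For 73 genes off the midpoint FUN025/+ differed from WT and from FUN025/FUN025 in opposite directions, each at an unadjusted p under 0.05, so that its fitted mean lay above both homozygotes for 43 and below both for 30, and 63 of the 73 were protein-coding. Elovl2 and Pdk4 belong to lists; the other examples that follow were chosen after their values were seen. Sulf2, which trims heparan sulfate, held 34.6, 39.4, 36.5 and 38.1 CPM in WT, between 25.8 and 37.1 CPM (median 31.2) in FUN025/+ and 65.1, 54.1, 66.9, 55.7 and 52.8 CPM in FUN025/FUN025. It was lowest in heterozygotes, which overlapped WT, and highest in mutant homozygotes (dominance contrast -0.58 ± 0.08, adjusted p = 0.00034). Dbi, the acyl-CoA binding protein, read 129, 114, 126 and 143 CPM in WT, between 81.9 and 113 CPM (median 95.2) in FUN025/+ and 123, 113, 119.9, 132 and 133 CPM in FUN025/FUN025. FUN025/+ libraries were at or below all others at the printed precision, while the homozygotes overlapped and did not differ by the test (adjusted p = 0.761). The dominance contrast was -0.41 ± 0.06 (adjusted p = 0.00166).

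Cox8b, Pdk4 and Mt2 were also lowest in heterozygotes. Cox8b, a cytochrome oxidase subunit of muscle and heart, was at 73 ± 10.1 CPM in WT, 44.5 ± 4.73 in FUN025/+ and 55.9 ± 5.57 in FUN025/FUN025 (-0.52 ± 0.08, adjusted p = 0.00213). Pdk4, a brake on pyruvate oxidation and a PPAR target, was at 42.8 ± 4.99, 23 ± 5.19 and 27.9 ± 1.96 CPM (-0.59 ± 0.11, adjusted p = 0.0108), and Mt2, a metallothionein, at 346 ± 17.8, 239 ± 24.5 and 286 ± 25.5 CPM (-0.40 ± 0.06, adjusted p = 0.00166). Of the Mt2 sequence 58.1% occurs in other genes. The muscle markers, lowest in FUN025/+ by their median, moved in the same order as Cox8b, and their part in it was not tested. Sostdc1, a BMP and WNT inhibitor, and Dgkb, a diacylglycerol kinase, were highest in heterozygotes, with contrasts of 0.40 ± 0.06 (adjusted p = 0.00163) and 0.50 ± 0.09 (adjusted p = 0.0062).

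PPAR receptors and targets had 21 genes tested and a median dominance contrast of -0.19, with 16 of 21 below 0, 2 called below the midpoint (0.81% of all genes), Pdk4 and Plin2, and 3 called between homozygotes (14.6% of all genes), these and Ucp3. Peroxisome genes had 28 tested and 4 called, Abcd3, Agps, Ehhadh and Gnpat, at a median position of 0.786, and mitochondrial fatty acid oxidation 18 tested and 2 called, Acaa2 and Etfb, beside 14.6% of all genes. Of 17 pigment epithelium and visual cycle genes none was called in either contrast, with medians of 0.13 for dominance and -0.11 between homozygotes. At an unadjusted p under 0.05 there were 5 and 2 of them, and adjusted by DESeq2 1 and 0, with 0 by limma. None of 10 smooth muscle genes passed either, though all 10 dominance contrasts were below 0 (median -0.29) and 4 of them, with 2 homozygote differences, had an unadjusted p under 0.05. Adjusted by DESeq2 and by limma voom 0 and 1 passed, with 0 by limma trend.

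Genes of the unfolded protein and stress response had 19 tested, of which 3 fell and 1 rose in FUN025/FUN025 and 2 were below the midpoint. Atf4, a transcription factor of the stress response, Hspa5, the main chaperone of the endoplasmic reticulum, and Ppp1r15a, a phosphatase subunit that ends the translation block, had the dominant mode alone left, and Canx, a lectin chaperone, more than 1 mode. The dominance contrast was -0.19 ± 0.04 for Atf4 (adjusted p = 0.0284) and -0.39 ± 0.06 for Ppp1r15a (adjusted p = 0.00257), and the median position of the 4 called was 0.996. Over all genes 7.81% rose, 6.75% fell and 0.81% lay below the midpoint.

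In each of the other lists 4 genes or fewer were called between homozygotes. Their share was above the 14.6% of all genes in some lists and below it in others. Of 20 collagen genes 4 were called, Col15a1, Col4a1, Col4a2 and Col8a1, at positions of 0.581 to 0.635, and the additive mode alone was left for Col4a2 and Col8a1. Of 21 lysosome genes 4 were called, 1 with the additive and 1 with the dominant mode alone, and the latter, Neu1, a sialidase, was below the midpoint (-0.19 ± 0.05, adjusted p = 0.0359). Resident macrophage genes had 3 of 15 called, at positions of 0.298 to 0.355, synaptic vesicle genes 3 of 21, mitochondrial fission and fusion genes 3 of 10 and myelin and Schwann cell genes 2 of 11. A single gene was called among 17 interferon response genes (Ifit3), 21 immediate early and heat shock genes (Hsph1), 10 melanin synthesis genes (Gpr143) and 10 genes of Bcor and its PRC1.1 complex (Bcor). No gene was called among 14 antigen presentation genes, 13 NRF2 targets and 11 lens genes in either contrast by edgeR. At an unadjusted p under 0.05 the dominance contrast gave 6, 1 and 1 of them and the homozygote contrast 1, 1 and 2. Adjusted by DESeq2 these were 1, 1 and 1 for dominance and 0, 1 and 0 between homozygotes, and limma voom called 1 NRF2 target in each contrast, with 0 for the rest and by limma trend.

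**Figure D5:**
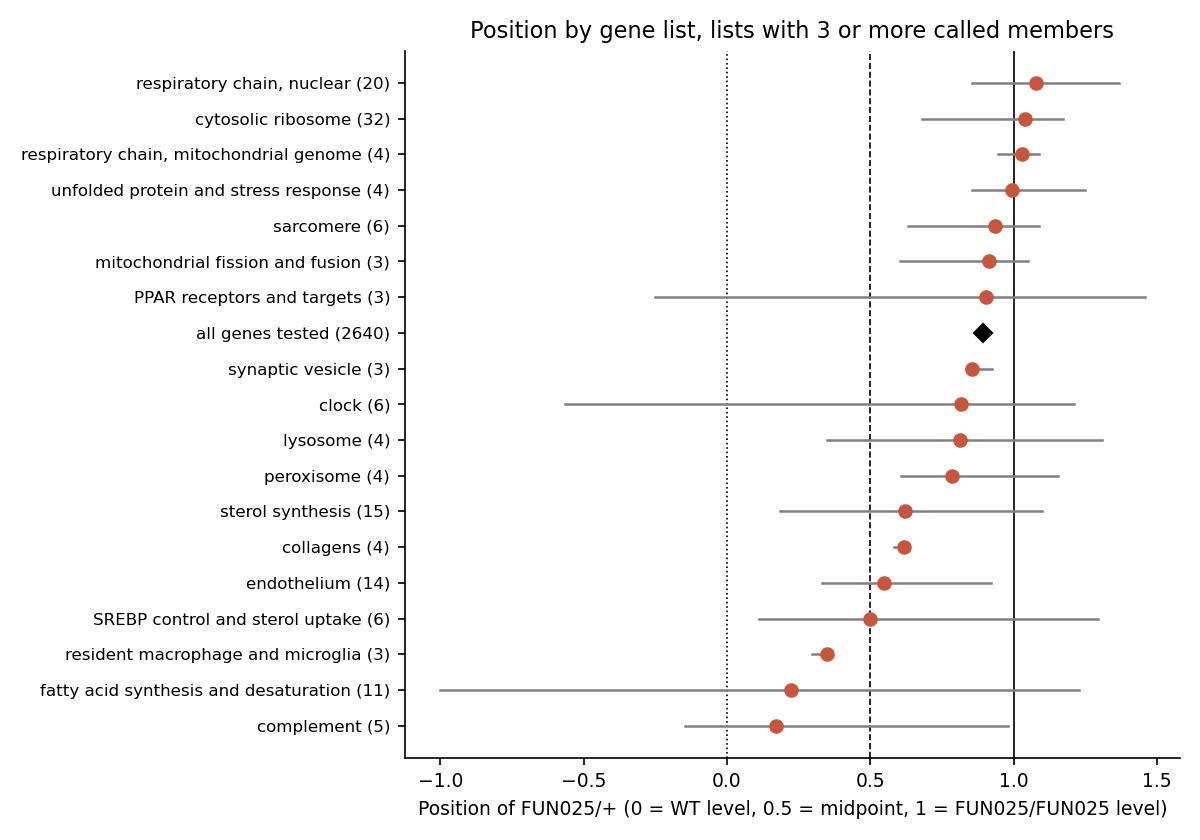
Median position of FUN025/+ (points) and its range (lines) are drawn for each gene list with 3 or more genes called between homozygotes, the number called standing in brackets, and the diamond gives all 2640 genes. Complement (0.170), fatty acid synthesis (0.225), SREBP control (0.498), endothelium (0.550) and sterol synthesis (0.623) lie left of the diamond at 0.895, and ribosome (1.04) and respiratory chain (1.08) lie right of it.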

How the data were processed

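RNA from posterior eyecups of 15 mice was sequenced by the authors from poly(A)-selected, unstranded NEBNext libraries. They deposited whole-number read counts per Ensembl gene, 1 file a mouse, with no normalization. The submitters' processing notes name FastQC 0.11.8, Trimmomatic 0.39, HISAT2 2.1.0, SAMtools, featureCounts 2.0.0 and GRCm38; the annotation release and strand setting are not given in the sources used here, so reads of overlapping or antisense genes may be assigned to either. Symbols, types and positions came from GENCODE M21.

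Genotypes came from the sample titles. All 15 libraries entered 1 fit, scaled by TMM, and contrasts were tested with robust quasi-likelihood F-tests of edgeR 4.0.16 (R 4.3.3), and p-values were adjusted by Benjamini-Hochberg over 18139 genes with a threshold of 0.05. The fit was tested on simulated counts. CPM values printed are counts over the totals of the genes tested, scaled by TMM. SD and SE are over 4 WT, 6 FUN025/+ and 5 FUN025/FUN025 libraries. Fold values are from the fit. Intervals of the position are 95% and follow Fieller's method. The sequence a gene shares is the percentage of its 31-base words found in any other gene. Promoters came from RefSeq, GRCm38.p6. Counts give the depth limit: 3 counts in a library, covering counting error only.

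Genes were named by rule: the 6 smallest p above and below the midpoint and, for each mode, the 4 highest and 4 lowest homozygote differences (protein-coding, adjusted p under 0.05, mean of at least 1 CPM), genes the study names, and members of the lists described; some of these genes are not reported here. The contrast, the 32 lists and these rules were chosen with earlier results of these data known. DESeq2 1.42.0 and limma 3.58.1 were alternatives. Python 3.11.15, pandas 2.3.3 and matplotlib 3.10.9 were also used.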

Additional observations from a re-analysis of the deposited data

Results flagged for a closer look

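In 144 groups of 4 to 6 libraries (48 named genes in 3 genotypes) the highest or lowest library was compared with the rest by Dixon's test at the 95% level, which flags about 1 in 20 groups by chance, and 9 groups had a library that stood apart. The recessive gene Chrnb4 was 94.5 CPM in FUN025/FUN025 replicate 3 against 68.5 to 75.5 CPM in the others. Among dominant genes, Rps29 was 91.5 CPM in FUN025/FUN025 replicate 1 (others 81.6 to 83.2), Atp5k 90.1 CPM in WT replicate 4 (65.5 to 69.4), Cyb5a 142 CPM in WT replicate 4 (131 to 133) and Syt13 6.72 CPM in WT replicate 2 (2.16 to 2.43). mt-Co3 stood apart in 2 groups, at 33.7 CPM in WT replicate 2 (17.5 to 19.6) and 179 CPM in FUN025/+ replicate 5 (77.2 to 93.5). The additive gene Etv4 was 5.48 CPM in FUN025/FUN025 replicate 5 (3.31 to 3.89), and Fads1 was 253 CPM in WT replicate 4 (244 to 245).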

How the results depend on the processing

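None of the 51 contrasts recomputed for the 48 named genes (the dominance contrast, the homozygote difference or both, by the rule that named the gene) changed sign under the alternatives run. Other contrasts of these genes and the positions of single genes and lists were not compared. The median dominance contrast of each list was compared as well. Apart from the fits that left out 1 library, 14 of these values moved by at least the error estimated from those fits. For genes off, above and below the midpoint, DESeq2 gave 687, 439 and 248, protein-coding genes alone 175, 110 and 65, a midpoint on linear CPM 155, 81 and 74, rod and sarcomere levels as covariates 82, 51 and 31, and genes sharing under 10% of their sequence (an alternative chosen after seeing the data) 76, 39 and 37. Homozygote calls numbered 1421 on linear CPM, 548 with the covariates and 1543 for genes sharing under 10%. On linear CPM the dominant mode alone was left for 717 genes, more than 1 mode for 551 and none for 16; with the covariates recessive 20, additive 61, dominant 394, more than 1 for 56 and none for 17, of which 16 of the 83 recessive, 32 of the 100 additive and 265 of the 1206 dominant genes kept their mode; under 10% shared, dominant 643, more than 1 for 742 and none for 17. Dropping modes at a p of 0.01 left additive 35, dominant 700, more than 1 for 1836 and none for 10. Placing genes by any genotype difference gave 690 with more than 1 mode and 130 with none. The causes were not tested.

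Leaving out 1 library at a time gave 208 to 517 genes off the midpoint, 130 to 325 above and 78 to 192 below it, 1504 to 2675 homozygote calls, 61 to 87 recessive, 78 to 106 additive, 766 to 1377 dominant, 553 to 1347 with more than 1 mode and 23 to 36 with none. Genes off the midpoint fell to 232, 208 and 249 without FUN025/+ replicates 2, 3 and 5, and those above it to 144, 130 and 148. Those below it fell to 96, 93 and 92 without WT replicates 2, 3 and 4, and to 91, 88 and 78 without FUN025/+ replicates 1, 2 and 3. Without WT replicate 4 there were 1504 homozygote calls, 766 dominant genes and 553 with more than 1 mode; the last was 778 without WT replicate 3 and 785 without FUN025/FUN025 replicate 2. The median position stayed between 0.860 and 0.916.

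Same-numbered libraries do not come from 1 animal, and their deviations correlated at -0.585 to 0.343 in 13 pairs. The labels do not say that the numbers pair the mice, and the main fit did not pair them. A fit with the replicate block gave 269 genes off the midpoint, 157 of them above it, and 2097 calls between homozygotes, and 57 recessive, 65 additive and 872 dominant genes kept their mode. With an offset for GC and length (chosen after seeing the data) 59, 59 and 708 did, and after thinning to equal depth 68, 80 and 986. With the level of Xist as a covariate, in place of the unlabelled sex, 505 genes were off the midpoint, 309 above it and 196 below it. Of 1551 values of named genes under alternatives, 1499 kept their side of the threshold and 52 lost it, most often for 9530053A07Rik, Stox1 and Syt13 and with the covariates. Depth limits genes near 1 CPM most.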

Other observations

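Both of the genes with at least 1 CPM in every WT library and no count in any of the 11 mutant libraries lay at 1 place on chromosome 13, where they overlap each other: the lincRNA Gm48116 (GRCm38 chr13:61709556-61711238) and the processed pseudogene Gm6436 (chr13:61710587-61711371). Their WT levels were 1.33 to 1.88 CPM and 1.16 to 2.15 CPM. Against the limit of 3 counts over all mutant libraries (0.0218 CPM), they were at least 76-fold and 78-fold higher in WT. Of their sequence 41.7% and 48.9% occurs in other genes. No gene showed the reverse pattern at these limits.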
